A study of Homo sapiens with 2 samples.

Results

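The mitochondrial translation factors examined here are 10 nuclear genes whose protein products start, elongate, end and reset protein synthesis on the mitochondrial ribosome. They were chosen by name: MTIF2 and MTIF3 for initiation, TUFM, TSFM and GFM1 for elongation, MTRF1 and MTRF1L for release, MTRFR for rescue, and MRRF and GFM2 for recycling. All 10 were found among 59026 genes. All 99 of their listed transcripts were taken, which are all that GENCODE v44 (GRCh38) holds for 8 of the genes, 9 of 12 for TSFM and 8 of 10 for MTRFR. The libraries had been made from rRNA-depleted total RNA of HEK293 Flp-In T-Rex cells, an untreated human embryonic kidney line with a single integration site for tetracycline-controlled transgenes, grown in high glucose DMEM with foetal calf serum. There was 1 group of 2 libraries, replicate 1 with 25158962 and replicate 2 with 27143860 estimated counts. The labels do not say whether the libraries came from separate cultures, so their spread may be technical, and no condition was compared.

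Mitochondria translate the mRNAs of their own genome with a set of factors of bacterial descent that is encoded in the nucleus and imported. mtIF2 (MTIF2) places the formylated initiator tRNA on the small subunit, and mtIF3 (MTIF3) keeps the subunits apart before initiation. EF-Tu (TUFM) carries aminoacylated mt-tRNAs to the ribosome, EF-Ts (TSFM) recharges EF-Tu with GTP, and EF-G1 (GFM1) moves the ribosome along the mRNA. Release factors free the finished protein, and the recycling factor (MRRF) with EF-G2 (GFM2) splits the ribosome. The study asked how a methylated cytidine in mt-tRNAs supports this process, and the RNA-seq libraries served there to describe METTL8 transcripts.

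Several of these genes made transcripts that differ in a short stretch of coding sequence, and the sequences below are shown because the transcript shares turn on them. They were read 5′ to 3′ from GENCODE v44 transcript sequences on GRCh38. The capitals mark the segment that only some transcripts hold, and the lower-case letters are the 15 nt of exon on either side. Exon 6 of GFM1-201, on the plus strand at chr3:158650005-158650061, and exon 14 of GFM2-207, on the minus strand at chr5:74738502-74738642, are whole coding exons of 57 and 141 nt. In MTRF1L-203 the segment is the first 25 nt of exon 3, on the minus strand at chr6:152995295-152995319, and MTRF1L-208 joins exon 2 to the exon downstream of them.

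GFM1-201 exon 6: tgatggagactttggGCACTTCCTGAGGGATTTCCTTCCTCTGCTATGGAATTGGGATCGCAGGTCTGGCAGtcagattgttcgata
GFM2-207 exon 14: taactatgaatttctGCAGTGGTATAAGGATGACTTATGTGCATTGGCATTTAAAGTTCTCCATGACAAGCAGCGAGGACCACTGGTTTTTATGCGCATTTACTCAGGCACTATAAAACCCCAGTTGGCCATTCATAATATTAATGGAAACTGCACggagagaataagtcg
MTRF1L-203 start of exon 3: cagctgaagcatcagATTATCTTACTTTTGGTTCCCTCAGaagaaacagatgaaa
MTRF1L-208 start of exon 3: cagctgaagcatcagaagaaacagatgaaa

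A further pair of junctions separates GFM1-207, a transcript annotated for nonsense-mediated decay (NMD, the destruction of mRNAs with an early stop codon), from GFM1-210, a protein-coding model. The capitals mark the exon bases that lie at positions only that transcript holds as exon, some of which have the same letter in both, at the junction of exons 6 and 7 and at that of exons 9 and 10, with 15 nt on either side.

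GFM1-207 exons 6 and 7: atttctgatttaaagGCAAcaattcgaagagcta
GFM1-210 exons 6 and 7: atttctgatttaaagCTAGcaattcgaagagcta
GFM1-207 exons 9 and 10: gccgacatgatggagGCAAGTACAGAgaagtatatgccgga
GFM1-210 exons 9 and 10: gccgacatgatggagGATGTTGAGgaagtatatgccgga

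The values used are the counts estimated per transcript by the authors with RSEM, the same counts divided by the authors' size factor per library (normalised counts), and, for comparisons between genes, counts divided by GENCODE v44 transcript length and scaled to 1000000 per library (length-normalised level). All 8 genes listed as markers of HEK293 held at least 10 normalised counts in both libraries, with a range of means from 16.6 for NEFM to 15885 for VIM. Of 7 markers of blood, liver and muscle, PTPRC, CD3E, ALB and MYH2 were at 0 in both, and HBB alone reached 10, with 179.0 and 181.8. Libraries differed by more than 2-fold for 9.34% of the 26370 genes that reached 1 normalised count in each.

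Together the 10 genes summed to 17996 normalised counts in the first library and 16144 in the second. This was 0.0676% and 0.0641% of all estimated counts. TUFM alone held 9067 and 8857 normalised counts, or 52.6% ± 3.17 (SD, n = 2) of the sum. Each library thus carried about as many counts on TUFM transcripts of all types as on the other 9 genes together. Of these 9, GFM2 had the highest mean, 1560 ± 342, and MTIF3 the lowest, 235 ± 17.6 normalised counts (SD, n = 2 each).

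TUFM also stood first per length. Its length-normalised level was 248.3 and 220.3, on average 234 ± 19.8 (SD, n = 2), which was higher than that of 99.0% of the 26370 genes. TSFM followed with 28.3 ± 1.95, then MRRF with 24.1 ± 0.714, GFM2 with 24.0 ± 6.98, MTIF2 with 18.7 ± 3.89 and MTRFR with 16.6 ± 2.48 (SD, n = 2 each). GFM1 with 14.2 ± 1.89, MTRF1L with 12.1 ± 1.95, MTRF1 with 9.82 ± 0.877 and MTIF3 with 9.48 ± 0.404 stood at the lower end (SD, n = 2 each). The initiation and elongation factors were spread over this order. The recycling factors MRRF and GFM2 stood next to each other, as did the release factors MTRF1L and MTRF1. With protein-coding transcripts only, neither pair was adjacent per length. GFM2 was then at rank 3, MRRF at 6, MTRF1 at 8 and MTRF1L at 10.

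A difference between genes was called when its order held in each library and the gap between means was wider than the 2 SDs added. With 2 libraries, an exact sign-flip permutation test cannot give a two-sided p under 0.5, so no p is given. Of the 9 pairs of neighbours in the length-normalised order, 2 passed this rule: TUFM was 8.27-fold above TSFM, and TSFM was 1.17-fold above MRRF. MRRF and GFM2 changed places between the libraries. The other 6 pairs kept their order in both libraries, but by less than the sum of their SDs. With normalised counts 4 pairs passed, TUFM over GFM2, GFM2 over MRRF, MTRF1L over MTRF1, and MTRF1 over MTIF3, and TSFM went from rank 2 to rank 7.

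**Figure D1:**
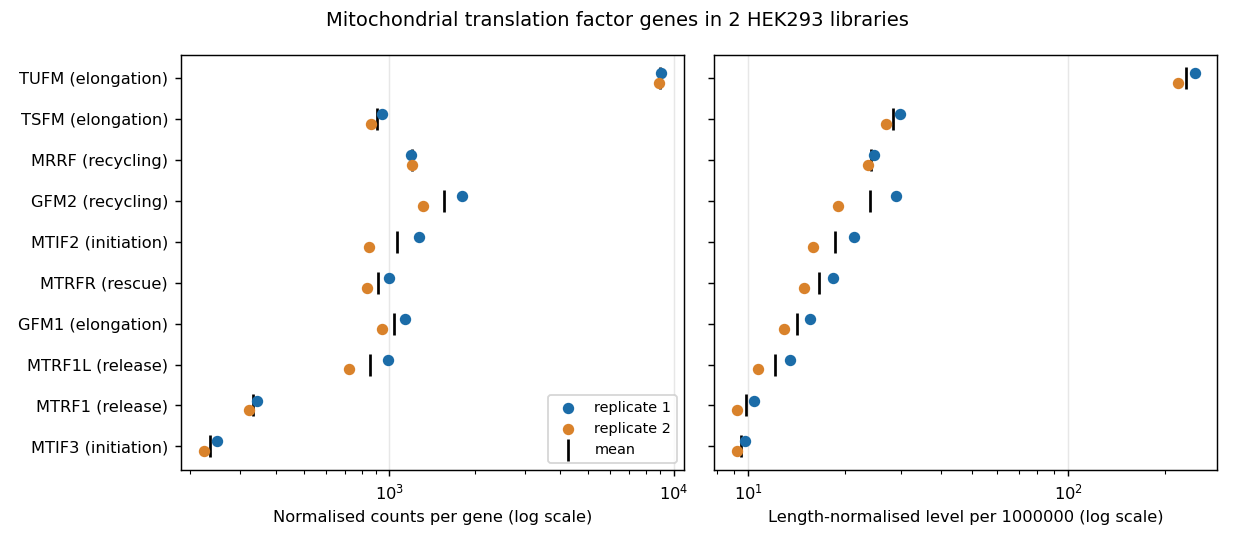
Normalised counts (left) and length-normalised level per 1000000 (right) of each gene on log axes, with 1 point per library and a bar at the mean. TUFM lies far to the right on both scales, at 8962 and 234 on average, while the other 9 genes lie within 235 to 1560 normalised counts and 9.48 to 28.3 on the length-normalised scale.

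Among the initiation factors, MTIF2 (ENSG00000085760.15, chromosome 2, 55236595 to 55269347, minus strand) had normalised counts of 1276 and 851 in replicates 1 and 2, and MTIF3 (ENSG00000122033.15, chromosome 13, 27435643 to 27450591, minus strand) held 247 and 223. MTIF2 was the higher in each library. Per length MTIF2 was 2.20-fold above MTIF3 in replicate 1 and 1.74-fold in replicate 2, a log2 ratio of 0.97 ± 0.24 (SD, n = 2), larger than the spread between libraries.

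MTIF2 counts were divided between transcripts for the same protein. MTIF2-203 took 47.3% of the gene in replicate 1 and 42.7% in replicate 2, and MTIF2-201 took 42.7% and 45.01%, so each led in 1 library. With MTIF2-204 they share 1 coding sequence of 2181 nt and differ outside it. This coding sequence received 95.9% and 91.9% of the MTIF2 counts. MTIF2-203 has no 50-nt word that other listed MTIF2 transcripts lack, and MTIF2-201 has 46 of 2487. Few positions are thus particular to either among all listed transcripts of the gene.

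MTIF3 had the lowest counts of the set, 234 and 240 estimated counts over 12 transcripts. MTIF3-203 was at 37.6% (95% exact interval 31.4 to 44.2%) in replicate 1 and at 47.8% (41.4 to 54.4%) in replicate 2, and MTIF3-202 was at 39.8% and 25.6%. Both carry the same coding sequence of 834 nt, which held 77.4% and 73.4% of the counts. MTIF3-205, a transcript with no defined coding sequence, held 17.8% and 18.0%. Of the MTIF3 exons, 181 nt lie opposite exons of GTF3A, a gene with 1107 ± 97.1 normalised counts (SD, n = 2). No source used here gives the strand setting of the counting, so reads from such overlaps cannot be told apart.

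For elongation, TUFM (ENSG00000178952.11, chromosome 16, 28842411 to 28846348, minus strand) and its exchange factor gene TSFM (ENSG00000123297.20, chromosome 12, 57782761 to 57808071, plus strand) were far apart in level. The log2 difference of replicate 2 from replicate 1 was -0.03 for TUFM and -0.13 for TSFM with normalised counts, and -0.17 and -0.14 per length. The log2 ratio of TUFM to TSFM was 3.05 ± 0.02 per length and 3.31 ± 0.07 with normalised counts (SD, n = 2 each). GFM1 (ENSG00000168827.15, chromosome 3, 158644527 to 158695581, plus strand) was lower than TSFM per length in both libraries, by 0.524 and 0.478 times, and the pair passed the rule. With normalised counts the order turned, with GFM1 at 1.21 and 1.09 times TSFM, and the pair did not pass. TUFM was 15.9-fold and 17.1-fold above GFM1 on the same scale.

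TUFM-201, the only protein-coding transcript of TUFM listed, took 79.3% of the gene in one library and 82.0% in the other. Most of the rest fell on transcripts annotated with a retained intron. TUFM-204 held 15.6% and 14.5%, or 1340 and 1381 estimated counts, more than the whole of MTIF3 or MTRF1 held. TUFM-202, 294 nt long, held 5.07% and 2.32%. Because the retained intron models are short, their length-normalised share was 43.0% ± 7.18 against 18.7% ± 2.78 of the counts (SD, n = 2 each). TUFM without them still stood first: protein-coding transcripts alone gave a length-normalised level of 131 ± 2.67, against 28.3 ± 1.95 for TSFM (SD, n = 2 each).

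All TSFM counts were on transcripts annotated as protein-coding. The complete models among these hold 5 distinct coding sequences, of which that of TSFM-207 had no counts in either library. TSFM-201, with a coding sequence of 1038 nt, took 72.6% and 80.5% of the counts. TSFM-206 held 12.2% and 9.10%, and TSFM-204, a model incomplete at its end, 13.3% and 6.90%. Among the transcripts that join the exons on either side, those with exon 5 of TSFM-201, an exon of 63 nt, held 82.7% of 783 counts (95% exact interval 79.8 to 85.2%) in the first library and, in the second, 88.5% of 847 (86.2 to 90.6%). The gene overlaps a read-through locus on the same strand over 2160 nt of its exons, but that locus, ENSG00000257921, held only 6.74 and 10.9 normalised counts.

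GFM1 had no clear leading transcript, and the one that led in replicate 1 was not a protein-coding one. GFM1-207, annotated for NMD, held 470 estimated counts or 43.6% (95% exact interval 40.7 to 46.7%) in replicate 1 and 349 or 34.3% (31.4 to 37.3%) in replicate 2. GFM1-201, with a coding sequence of 2310 nt, held 34.0% and 38.5% and led in replicate 2. GFM1-208, shorter at the 3-prime end, held 12.5% and 14.9%. GFM1-210, which GENCODE v44 marks as the canonical model of the gene, had no counts in replicate 1 and 34.7 counts or 3.42% in replicate 2. By counting error alone, a share below 0.279% would go unseen in replicate 1. This limit leaves out how RSEM divided reads between models.

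The sequences of GFM1-207 and GFM1-210 show how little separates them. From the start codon to the last exon GFM1-207 has 2126 nt and GFM1-210 has 2124, and only the junctions printed above differ, with 15 nt of GFM1-207 against 13 nt of GFM1-210. Introns 6 and 9 of GFM1-207 begin with GT and end with AG, whereas those of GFM1-210 begin with GC and end with AG. GFM1-201 and GFM1-208 also have 2 such introns each. The second junction is 2 nt longer in GFM1-207 and shifts the reading frame. The last exon is 1237 nt in GFM1-207, 1234 nt in GFM1-201 and 4246 nt in GFM1-210. Of 3421 distinct 50-nt words of GFM1-207, 112 are in no other listed GFM1 transcript. How many reads crossed these junctions cannot be read from the tables, so the 39.0% ± 6.59 (SD, n = 2) assigned to an NMD transcript rests on this model.

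The 57-nt exon of GFM1 adds 19 codons. Among the 4 transcripts that either hold it or join its neighbours, those with it made up 37.7% of 970 counts (95% exact interval 34.7 to 40.9%) in the first library and, in the second, 42.3% of 927 (39.1 to 45.5%). Transcripts that skip it thus held the larger part in both libraries. Of them GFM1-207, annotated for NMD, held 470 of 604 counts in replicate 1 and 349 of 535 in replicate 2. GFM1-208 and GFM1-210 held 134.7 and 0 counts in replicate 1, against 366 for GFM1-201 with the exon. In replicate 2 they held 151.4 and 34.7, against 392 for GFM1-201. The larger part of the skipping form therefore rests on the counts assigned to GFM1-207. The share with the exon was 37.0% ± 3.01 per length (SD, n = 2), less than 1 SD from the 39.98% ± 3.20 of the counts.

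The release factor genes were near the lower end of the set. MTRF1 (ENSG00000120662.16, chromosome 13, 41216369 to 41263577, minus strand) held 342 and 322 normalised counts. MTRF1L (ENSG00000112031.16, chromosome 6, 152987362 to 153002709, minus strand), which codes for the factor that reads the usual stop codons, held 990 and 724. With these counts MTRF1L was 2.90-fold and 2.25-fold above MTRF1. Per length the ratios were 1.29 and 1.16, and the pair no longer passed the rule.

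MTRF1L was the only gene of the 10 with less than 50% of its counts on protein-coding transcripts. They held 26.6% (95% exact interval 23.8 to 29.6%) in replicate 1 and 11.2% (9.14 to 13.7%) in replicate 2, against 9.03% of 9361 protein-coding genes in the same range of counts with less than 50%. MTRF1L-208, with no defined coding sequence, led in both libraries, with 51.6% and 57.1%. MTRF1L-211, of the same annotated type, held 11.0% and 18.0%. MTRF1L-203, whose coding sequence of 1140 nt is the longest of the gene, had 196 estimated counts in replicate 1 but 16.7 in replicate 2, or 20.9% and 2.14%.

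The 25 nt of exon 3 printed above, which are not a multiple of 3, set MTRF1L-203 apart from MTRF1L-208. Transcripts that hold them took 31.7% of 858 counts (95% exact interval 28.6 to 34.9%) in the first library and, in the second, 21.3% of 745 (18.3 to 24.3%), so the shorter exon 3 took 68.3% and 78.7%. Per length the share with the 25 nt was 42.9% ± 0.967 (SD, n = 2), with 2 short transcripts with no defined coding sequence among those that hold it. MTRF1L-203 has 24 distinct 50-nt words of its own and MTRF1L-208 has none. The lncRNA ENSG00000227627 lies opposite 1625 nt of MTRF1L exons and held 79.7 ± 2.45 normalised counts (SD, n = 2).

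With protein-coding transcripts only, the order of the release factor genes turned. MTRF1L had 263 and 81.2 normalised counts, and MTRF1 had 282 and 255. On this scale the pair did not pass the rule. Per length, the protein-coding transcripts of MTRF1L stood at 3.404 and 1.395 and those of MTRF1 at 8.27 and 6.93, so MTRF1 was the higher in each library, and this order passed the rule. MTRF1 itself had MTRF1-202 as leading transcript in both libraries, with 34.4% and 44.3%, and MTRF1-203, MTRF1-205 and the NMD transcripts made up much of the rest. NMD transcripts held 14.5% and 16.3% of MTRF1.

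MTRFR (ENSG00000130921.9, chromosome 12, 123233385 to 123258079, plus strand), a relative of the release factors that frees stalled ribosomes, held 997 and 834 normalised counts. Per length it was 1.37-fold and 1.39-fold above MTRF1L, and 1.76-fold and 1.62-fold above MTRF1, and each pair passed the rule. The first passed narrowly, with a gap of 4.57 against added SDs of 4.43, and with normalised counts it did not pass, at 1.01 and 1.15 times. MTRFR-202 led with 66.5% and 67.7%, and MTRFR-201 followed with 12.8% and 14.8%. With MTRFR-204, MTRFR-205 and MTRFR-207 these share 1 coding sequence of 498 nt, which held 93.4% and 90.2% of the counts. MTRFR-204 was the least stable of them, at 84.2 estimated counts in replicate 1 and 0 in replicate 2. By counting error alone, a share below 0.334% would go unseen in replicate 2. The exons of MTRFR lie opposite those of CDK2AP1 over 1456 nt, and CDK2AP1 held 1209 ± 129 normalised counts (SD, n = 2). Of the 8 listed MTRFR transcripts, 1 had the same version in GENCODE v44. A changed version, and with it a length that may differ from the one counted on, was also found for TUFM-201, MRRF-202, MTIF2-201, MTIF3-202, MTRF1-203, MTRF1L-203 and GFM1-210, so length-normalised values of these are less certain.

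For recycling, MRRF (ENSG00000148187.18, chromosome 9, 122264603 to 122331337, plus strand) held 1194 and 1208 normalised counts, and GFM2 (ENSG00000164347.18, chromosome 5, 74721206 to 74767147, minus strand) held 1801 and 1318. GFM2 was above MRRF in both libraries with counts. Per length MRRF was 0.851 times GFM2 in replicate 1 and 1.24 times in replicate 2, so the order of this pair was not settled. GFM1, the elongation counterpart of GFM2, was 0.538 and 0.676 times GFM2 per length. The log2 ratio of GFM1 to GFM2 was -0.73 ± 0.23 (SD, n = 2), and the pair passed the rule.

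GFM2 counts were split between GFM2-207, with 45.6% and 38.5%, and GFM2-202, with 38.3% and 47.0%, so the leading transcript changed between the libraries. GFM2-202 lacks the 141-nt exon shown above, which codes for 47 amino acids and keeps the reading frame. Transcripts with the exon held 58.1% of 1557 counts (95% exact interval 55.6 to 60.6%) in the first library and, in the second, 51.5% of 1378 (48.9 to 54.2%). The form without it held 41.9% and 48.5%. Per length the share with the exon was 55.9% ± 3.82 (SD, n = 2). GFM2 shares 157 nt of exon with NSA2 on the opposite strand, which held 1270 ± 308 normalised counts (SD, n = 2). GFM2 and NSA2 were both lower in replicate 2, and the part of the overlap in this was not tested.

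MRRF was spread over more transcripts than any other gene of the set, with 5 averaging 10% or more. MRRF-202 led with 31.8% and 39.0%. It is 9594 nt long, and 7873 of its 9542 distinct 50-nt words are in no other listed MRRF transcript. MRRF-212, annotated for NMD, held 18.7% and 17.3%, and MRRF-206, with a retained intron, 12.4% and 9.87%. Neither MRRF-212 nor MRRF-208 has a 50-nt word that all other listed MRRF transcripts lack, so no single stretch of that length is particular to either. MRRF-208, which skips exon 6 of 160 nt, held 19.0% and 14.5%. Among transcripts that hold this exon or join its neighbours, 77.9% of 968 counts (95% exact interval 75.1 to 80.5%) held it in the first library and, in the second, 83.3% of 1133 (81.02 to 85.4%). Divided by length, MRRF-202 fell to 6.72% ± 1.305 of the gene and MRRF-207 rose from 15.1% ± 0.582 to 31.5% ± 0.390 (SD, n = 2 each).

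**Figure D2:**
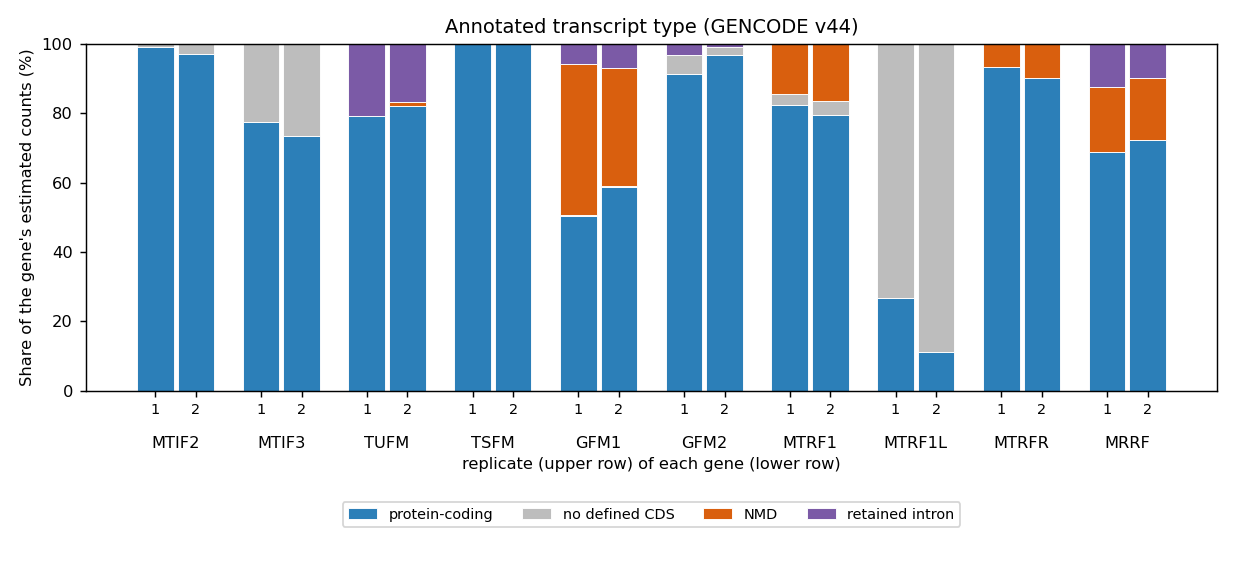
Share of each gene's estimated counts (vertical axis, %) by annotated transcript type, with 1 bar per library. TSFM is protein-coding throughout, GFM1 has 43.6% and 34.3% on its NMD transcript, and MTRF1L has 73.4% and 88.8% on transcripts with no defined coding sequence (CDS).

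Across the 10 genes the median share on protein-coding transcripts was 80.8%, against 91.7% over the 9361 protein-coding genes with several transcripts and a mean in the same range of 235 to 8962 normalised counts. It was above 90% in MTIF2, TSFM, GFM2 and MTRFR and between 54.6% and 80.9% in MTIF3, TUFM, GFM1, MTRF1 and MRRF. A leading transcript of another type was found for MTRF1L in both libraries and for GFM1 in replicate 1. In the comparison genes this was so for 8.58% in replicate 1 and 8.52% in replicate 2.

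The libraries shared their leading transcript for 6 genes, TUFM, TSFM, MTRF1, MTRF1L, MTRFR and MRRF, where it exceeded the next by 1.68-fold to 8.85-fold. It differed for MTIF2, MTIF3, GFM1 and GFM2, in which the highest pair lay within 1.05-fold to 1.87-fold of each other. The leading transcript differed for 14.9% of the comparison genes and for 21.5% of all 16735 genes with several transcripts. Of the 99 transcripts, 61 were above 0 in both libraries, 24 were at 0 in both and 14 in 1 library. In the comparison genes 18.2% of transcripts were at 0 in 1 library and 23.1% in both.

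**Figure D3:**
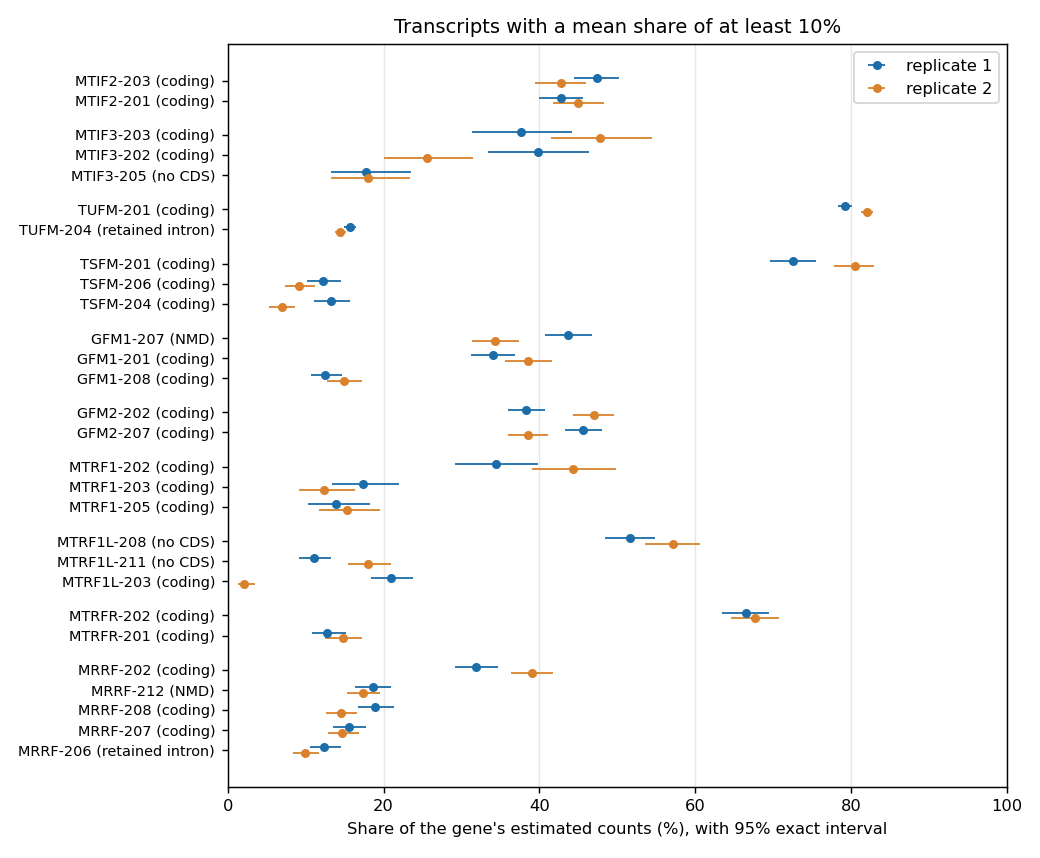
Shares (horizontal axis, % of the gene's estimated counts) of the 28 transcripts averaging 10% or more, with 1 point per library and its 95% exact interval, which covers counting error only. MTRF1L-203 shows the widest gap, 20.9% against 2.14%, and TUFM-201, MTRFR-202 and MTRF1L-208 lead in both libraries.

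**Figure D4:**
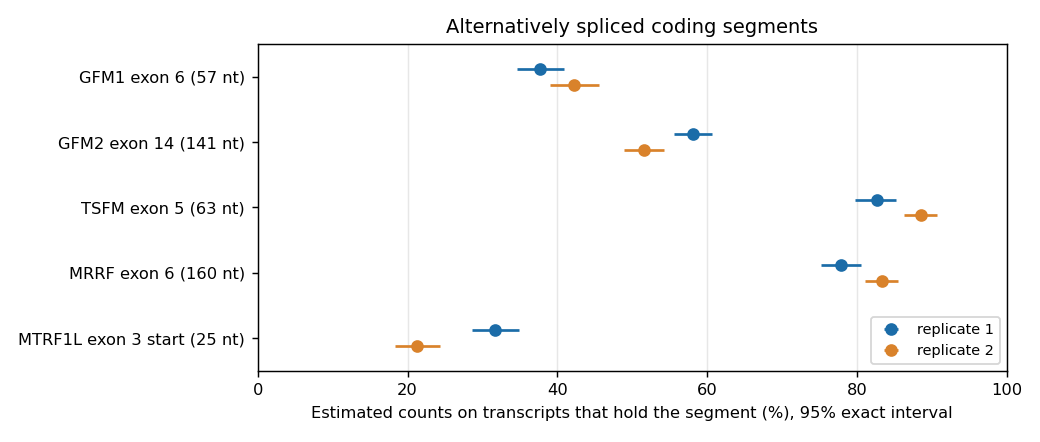
Percentage of estimated counts on transcripts that hold a coding segment (horizontal axis), of those that hold or skip it, with 1 point per library and its 95% exact interval. The GFM1 and GFM2 exons lie between 37.7% and 58.1% in both libraries, and the TSFM and MRRF exons at 77.9% or more.

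None of the 10 genes differed by more than 2-fold between the libraries in normalised counts, against 0.426% of 9868 protein-coding genes in the same range. Replicate 2 was lower for 9 genes, and MRRF was 1.01 times replicate 1. Of the genes in the range, 62.3% were lower in replicate 2 (51.4% of the 26370), with a median log2 difference of -0.12 against -0.21 for the 10 genes. With normalised counts MTIF2 differed most, with 0.667 times in replicate 2, followed by MTRF1L and GFM2, each at 0.732 times. Per length GFM2 differed most, with 0.659 times, and MTIF2 was at 0.744 and MTRF1L at 0.795 times.

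**Figure D5:**
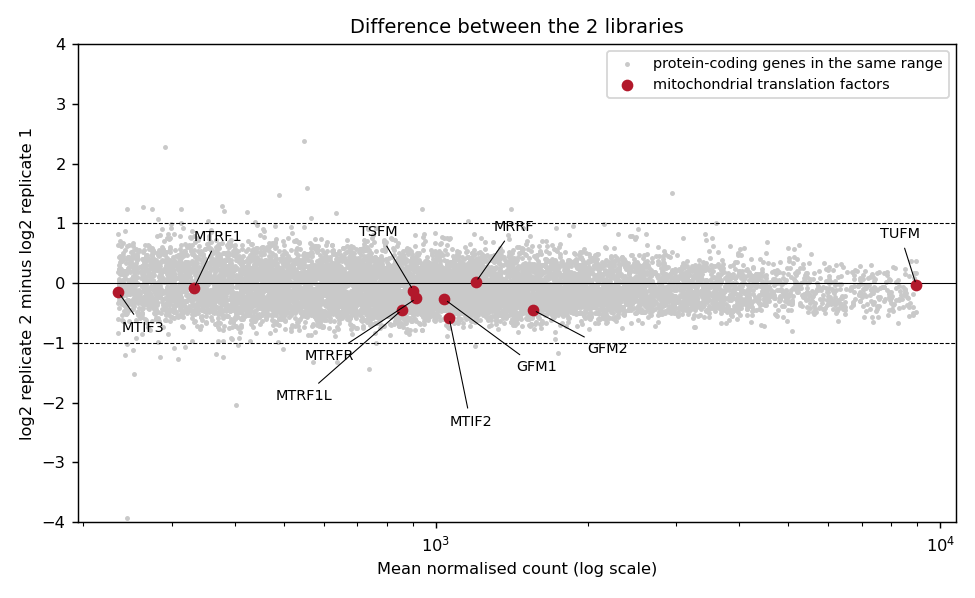
Difference between the libraries (vertical axis, log2 of replicate 2 minus log2 of replicate 1, pseudocount 1) against the mean normalised count on a log axis, for the 10 genes and for 9868 protein-coding genes in the same range. Dashed lines mark 2-fold, and all 10 genes lie between them, from -0.58 for MTIF2 to 0.02 for MRRF.

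None of the 45 pairs among the 10 genes had a 50-nt word in common. The genes were set beside 25 others of mitochondrial translation from a pathway list, which had a median length-normalised level of 16.2, against 17.7 for the 10 factors. C1QBP, a matrix chaperone, was the highest with 571 ± 88.5, followed by SLIRP with 136 ± 20.5, an RNA stability factor, and PTCD3 with 87.6 ± 15.6, a protein of the small ribosomal subunit (SD, n = 2 each). C1QBP was the only gene of the list above TUFM with all transcripts counted. The protein-coding transcripts of TUFM alone stood at 131, near the 136 of SLIRP over all its transcripts. The lowest were METAP1D with 4.35 ± 1.10, MTRES1 with 5.86 ± 0.339 and PDF with 6.25 ± 4.23 (SD, n = 2 each). By mean, 5 of the 25 were lower than all 10 factors. Of these 5, RMND1 was above MTIF3 in replicate 1, at 12.4 against 9.77. PDF was above MTIF3 in replicate 2, at 9.24 against 9.20. Of the list, 18 genes were lower in replicate 2, and 2 differed by more than 2-fold: RMND1 had 533 and 225 normalised counts, and PDF had 259 and 719.

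MRPL58, a relative of the release factors that is built into the large ribosomal subunit, stood at 34.6 ± 4.42 per length (SD, n = 2). It was 2.08-fold above MTRFR, 2.86-fold above MTRF1L and 3.52-fold above MTRF1, and all 3 pairs passed the rule. GUF1, a GTPase related to the elongation factors, was at 8.74 ± 0.563 and 0.614 times GFM1.

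In the pairs compared, cytosolic counterparts were higher per length for elongation, release and recycling, and lower in the only initiation pair. EEF1A2, on the same list but not paired, was below TUFM per length, at 98.8 and 105.9 against 248.3 and 220.3. Per length, EEF1A1 was 15.2-fold above TUFM, EEF2 was 102-fold above GFM1, EEF1B2 was 12.0-fold above TSFM, and ETF1 was 6.90-fold above MTRF1L and 8.48-fold above MTRF1. ABCE1, which recycles cytosolic ribosomes, was 2.22-fold above MRRF. EIF5B, the cytosolic relative of mtIF2, was at 10.1 ± 0.880 and 0.541 times MTIF2 per length (SD, n = 2), but with normalised counts EIF5B was the higher in each library, at 1401 and 1025 against 1276 and 851. All 6 pairs and that of EIF5B passed the rule. EEF1A1 has processed pseudogenes that can take reads from it. The median of the 8 cytosolic genes was 122 on this scale. With all transcripts counted, 3 of them, EEF1A1, EEF2 and EEF1B2, were above TUFM. GSPT1, at 143 ± 22.7 (SD, n = 2), was below the 234 of TUFM, whose protein-coding transcripts alone stood at 131.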

How the data were processed

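Each library had a table of 206696 transcripts. The estimated counts were made by the authors with RSEM 1.3.3, and per the file headers a second deposited column held a normalised signal, the same estimate over a library's size factor (0.945 and 1.08). The submitters' processing notes also list FastQC, STAR 2.7.0d and R 3.6.3. The study names an Ensembl release of GRCh38.p13 for its read alignment. The strand setting is not given in the sources used here.

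Transcripts were looked up in GENCODE v44 by identifier, ignoring versions, which found 202217. Of the 99 transcripts used, 84 had the same version. The unmatched rest (3.13% and 3.17% of counts) stayed in library totals. Counts were summed per gene, and also divided by GENCODE v44 length without effective length correction and scaled to 1000000. The plan had normalised counts as main values. Length-normalised levels were used for the order of genes, and shares of summed counts and some pairs are given with counts, as stated there. Exact (Clopper-Pearson) 95% intervals and the limit of 3 counts for a transcript at 0 cover counting error only. Sequence comparisons used 50-nt words. The over 2-fold call between libraries and the comparison of leading transcripts were tested on simulated data. The simulation left out how reads are divided between transcripts. Leading transcripts were scored there only where the first was at least 2-fold above the next, which leaves out MTIF2, MTIF3, GFM1 and GFM2. The rule for differences between genes was not tested on simulated data. Python 3.11.15, pandas 2.3.3 and SciPy 1.17.1 were used.

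The members and gene lists were chosen with earlier results of these data known, and the splice segments and the overlap values after transcript shares were seen. Named by rule were the 10 genes, transcripts averaging 10% or more of their gene, the 3 highest and 3 lowest of the pathway list with MRPL58 and GUF1, and the cytosolic counterparts. Alternatives covered each library alone, length, transcript type, low values, version, scaling, the total and a pseudocount of 0.1. The tables of METTL8 transcripts were not used. One gene that overlaps a member is not reported here.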

Additional observations from a re-analysis of the deposited data

Results flagged for a closer look

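Processed pseudogenes of the factors, which entered no comparison, held counts above the 3 that a count of 0 allows in both libraries for MTIF2P1 and MRRFP1. For MTIF2P1 the estimated counts were 20.0 and 15.1 in replicates 1 and 2. MRRFP1 held 12.4 and 5.97, and shares 113 distinct 50-nt words with MRRF, whereas MTIF2P1 shares 0 with MTIF2. There are no control samples to set them against.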

How the results depend on the processing

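No paired analysis was possible because the libraries form 1 group. With 2 libraries, either one alone lies within 1 SD of their mean, so the 14 such alternatives say nothing about stability. They gave 0.0641 to 0.0676% for the summed level, 50.4 to 54.9% for TUFM, and log2 ratios of -0.66 to -0.48 for GFM1 to GFM2 and 1.17 to 1.53 for MTRF1L to MTRF1. Of 52 other alternatives, 5 were added after seeing the data. Of the 52, 38 kept a call, moved a value by less than the spread or, for a count of genes or pairs, changed it little. Among the 38, the leading transcript was shared in 8 genes per length and 7 with unchanged versions, against 6. Unchanged versions also gave 5 separate neighbouring pairs against 4. The cause of a change was not tested unless named. Length normalisation gave 59.9% for TUFM, 2 separate neighbouring pairs in place of 4, 75.1% for the median protein-coding share, and 0.29 for the log2 ratio of MTRF1L to MTRF1, no longer called (1.35 with counts). Union exon length gave 70.2% for TUFM. With protein-coding transcripts only, the summed level was 0.0522%, the log2 ratio of MTRF1L to MTRF1 turned to -0.88, and 1 gene, MTRF1L, differed by more than 2-fold; divided by length, one of those added, the ratio was -1.80. Transcripts with an unchanged version gave 0.0302%, 22.2% for TUFM, 70.5% for the median share and 1 gene over 2-fold, MTRFR, since this leaves out the leading transcripts of both genes. A total without mitochondrial-genome, misc_RNA, ribozyme, snRNA and rRNA transcripts gave 0.0799%. At this depth, and by counting error alone, a transcript with no counts could still hold 0.0314% of TUFM or 1.28% of MTIF3.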
